A study of Mustela putorius furo with 10 samples.

Results

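Genes of the BCL2 family, with BCL2L15 among them, were measured in peripheral blood mononuclear cells (PBMC, the lymphocytes and monocytes of blood) of male ferrets aged 3 months. The control group was kept at 22 °C (6 ferrets) and the cold group at 4 °C for 1 week (4 ferrets), and the animals carried no genetic change or drug that the labels name. The methods name individual housing next to the cold group, in wording that may also cover the controls. If controls were housed otherwise, cold and single housing cannot be told apart. Blood was taken from the heart under ketamine and medetomidine anaesthesia in fed animals, and PBMC were separated on a Ficoll gradient. The cold group is smaller because PBMC could not be obtained from every cold animal.

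The list held 10 family genes, each matched to the array through the RefSeq gene name of its target sequence. Of these, 8 were matched, and all 8 met the limit of a Cy3 signal flagged as well above background on 4 or more of the 10 arrays, out of 26303 features tested as genes. Of these, 9276 carried a RefSeq gene name, and the other 17027 were target sequences without one, each counted as a gene. The family genes are BCL2L15, BCL2L1, BCL2A1, MCL1, BAX, BAK1, BCL2L11 and BID. BCL2 and BBC3 were not matched and are not analysed here. The dimmest of the measured genes was BID, whose weakest probes were well above background on 9 arrays, and no listed gene lay just under the limit of 4. The list was drawn up by family membership and that brightness limit, with earlier results of these data known. BCL2L15, in addition, was selected on its measured change, since the study had named it from this comparison of cold and control, so its values are given as a description with no test.

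The BCL2 family controls the mitochondrial route to apoptosis, in which the outer mitochondrial membrane is opened and cytochrome c escapes to start the caspase cascade. Pro-survival members such as BCL2L1 (BCL-XL), MCL1 and BCL2A1 hold the pore-forming effectors BAX and BAK1 in check, and initiators such as BCL2L11 (BIM) and BID bind the survival proteins or activate the effectors. In blood, this balance sets how long lymphocytes, monocytes and short-lived granulocytes survive. BCL2L15 (Bfk) is a little studied relative that carries BCL2 homology motifs and has been described mainly in the gut.

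Each array was hybridised with the Cy3-labelled RNA of 1 ferret and with a Cy5-labelled reference pool that was the same on every array. All levels below are log2 ratios of Cy3 to Cy5 after loess normalization within the array. A value above 0 means a higher ratio than is typical of spots of like brightness on that array. It does not say that the ferret held more of the transcript than the pool. Levels of different genes are not set against each other. A change is the mean of the cold arrays minus the mean of the control arrays on the same scale. Each array stands for 1 animal, and the litter of the animals is not given. The reference channel was dimmer than the ferret channel and differed between arrays. The share of spots with a Cy5 signal flagged as well above background was 27.0 to 54.9% in control and 40.5 to 64.0% in cold, against 50.4 to 63.5% for Cy3 over all 10 arrays. The number of arrays limits how precise each value is.

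Among all 26303 genes, 0 passed an adjusted p of 0.05 in limma (0% called), 6501 had an unadjusted p under 0.05 (24.7%) and 2272 had one under 0.01 (8.64%; 5.21% higher and 3.43% lower in cold), the threshold of the study's methods. Among the 9276 with a gene name, 25.6% were under 0.05 and 8.57% under 0.01. The methods' t-test gave 1726 genes at that threshold and 0 after Benjamini-Hochberg adjustment. Of the 7 family genes that could be tested, 0 passed the adjusted threshold, 4 had an unadjusted p under 0.05 and 1, BAK1, had one under 0.01. With the methods' t-test, 2 family genes, BAK1 and MCL1, were under 0.01 and 0 passed after adjustment. The groups did not overlap for 1374 genes of the whole table (5.22%; 3.07% higher and 2.15% lower in cold), and 1 of the 7 tested family genes, BAK1, was among them.

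Of the 7 tested genes, 5 had a higher mean in cold and 2, MCL1 and BCL2L1, a lower one, with a median change of 0.20, beside a median of -0.01 over all genes tested, of which 52% had a lower mean in cold. The family median was 0.07 without cold 3 and 0.36 without cold 4. This split is given under other scalings beside the shift of all genes. In Cy3 alone 4 were higher and 3 lower (median 0.06), with the scanner software's intensities 3 and 4 (median -0.07), in the authors' deposited values 3 and 3 with 1 at 0 (median 0.00), and with each array centred on its median 0 and 7 (median -0.44). Over all genes the median was -0.04 in Cy3 alone, -0.10 with the scanner software's intensities and 0.01 in the deposited values, and with median centring it was -0.43 with 77.1% lower, so that the family lay at the level of all genes there. All of these statements concern bulk RNA, in which fewer cells of a type and less RNA per cell cannot be told apart.

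**Figure D1:**
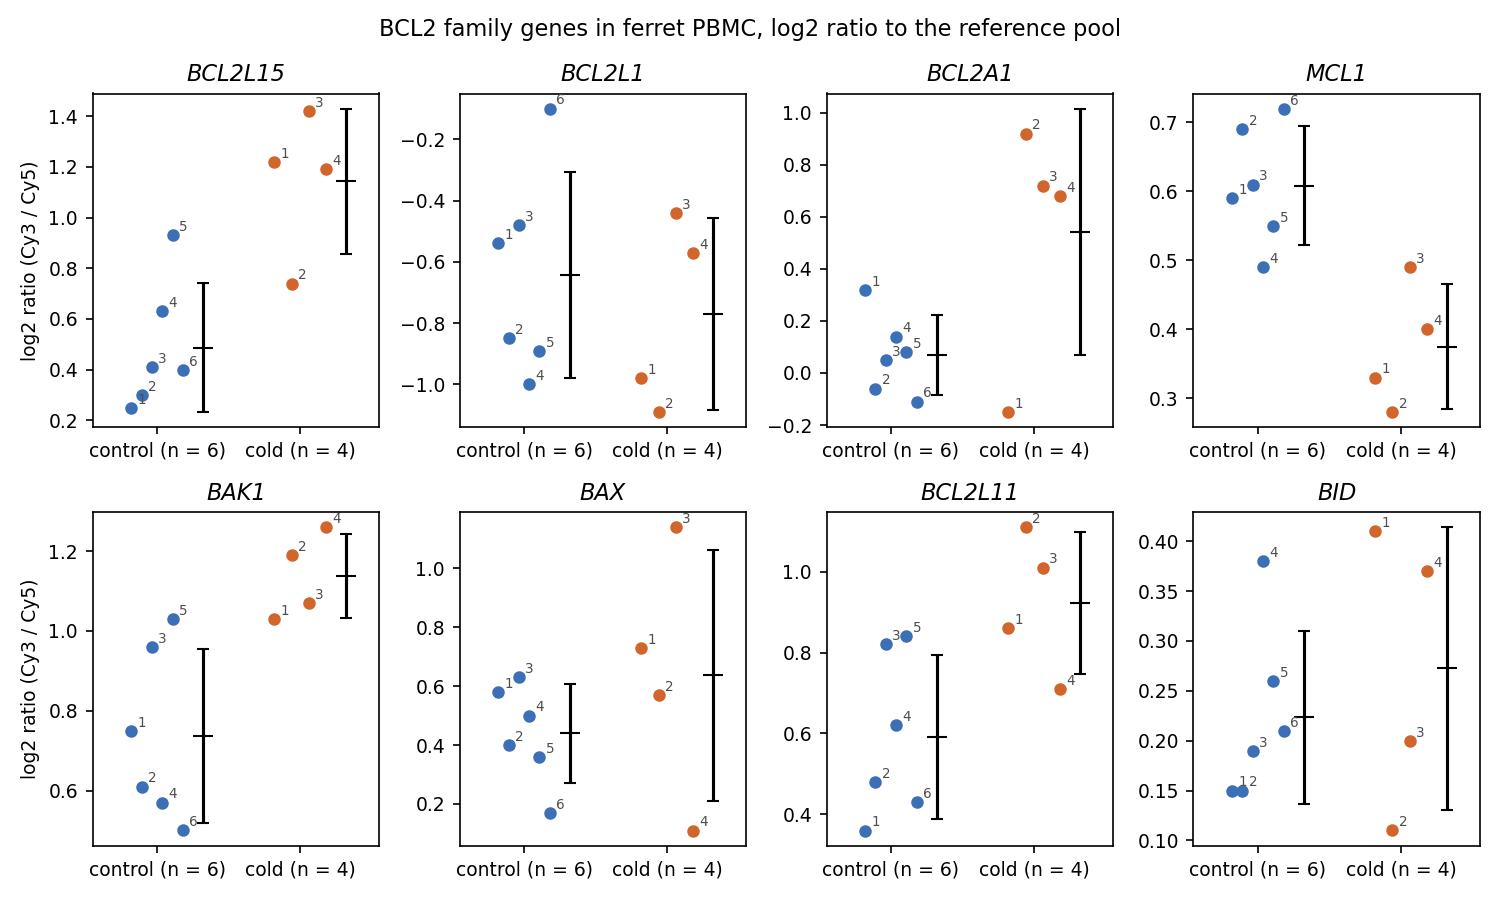
Log2 ratio of Cy3 (ferret) to Cy5 (reference pool) of each measured BCL2 family gene, with 1 point per array, numbered by replicate, in control (n = 6) and cold (n = 4), and the mean ± SD beside each group. The axes differ between panels. For BAK1 the lowest cold array sits at 1.032 and the highest control array at 1.029, while for every other gene the groups overlap.

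BCL2L15 was selected on its change, so its place among the 8 genes is no finding. Its log2 ratio in control was 0.25 at the lowest, 0.40 at the median and 0.93 at the highest array. In cold it was 1.22, 0.74, 1.42 and 1.19 on arrays 1 to 4. All cold arrays except cold 2 lay above the control range, and cold 2 lay below control 5. The group means were 0.49 ± 0.25 (SD, n = 6) and 1.14 ± 0.29 (SD, n = 4). The change was 0.66 with a standard error of 0.16, or a 1.58-fold higher ratio in cold after loess normalization. All 4 probes of its single target sequence were higher in cold, by 0.60 to 0.74.

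The reference channel bears on the BCL2L15 ratio as its denominator. The pool signal of this gene was weak, and its probes had Cy5 well above background in 29.2% of the probe and array combinations in control and in 87.5% in cold. Control 5, the control array with the highest BCL2L15 ratio, was also the one with the largest share of Cy5 spots well above background (54.9%), and cold 2, the cold array with the lowest ratio, had the smallest share of its group (40.5%). In control the ratio rose with this share over arrays 1 (34.3%, 0.25), 3 (35.2%, 0.41), 4 (48.4%, 0.63) and 5 (54.9%, 0.93). In cold it rose over arrays 2 (40.5%, 0.74), 4 (47.9%, 1.19) and 3 (59.7%, 1.42). A brighter reference thus went with a higher loess ratio on these arrays. Control 2 (31.6%, 0.30), control 6 and cold 1 departed from this order. Control 6 had the smallest share of all (27.0%) with a ratio of 0.40, above control 1 (34.3%) and control 2 (31.6%), and cold 1 had the largest (64.0%) with a lower ratio than cold 3 (59.7%). The part of this difference in brightness in the BCL2L15 result was not tested.

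The ferret channel can be read on its own. In Cy3 alone, quantile normalized between arrays, BCL2L15 in control was 9.12 at the lowest, 9.40 at the median and 9.65 at the highest array on a log2 intensity scale. In cold it was 9.79, 10.15, 10.08 and 10.09 on arrays 1 to 4. On this scale the cold arrays were all above the control range, and the change was 0.64, with each of the 4 probes between 0.62 and 0.65. The share of all genes without overlap on this scale was not counted, and BCL2L15 was selected on its change. The separation is therefore only a description. Cold 2, lowest of its group as a ratio, was the highest in Cy3. Before any normalization the Cy3 intensity, averaged over its probes, ran from 546 to 1070 in control and from 956 to 1510 in cold, so that the raw ranges overlapped.

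**Figure D2:**
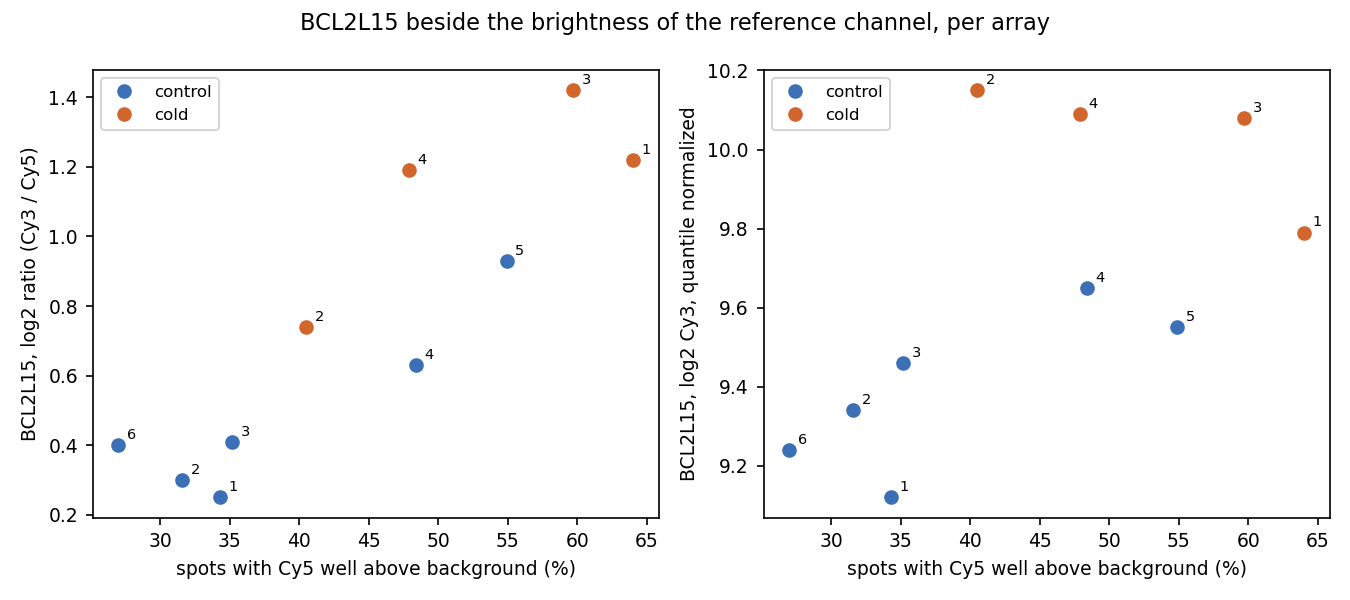
BCL2L15 on each of the 10 arrays, as the log2 ratio of Cy3 to Cy5 (left) and as quantile normalized log2 Cy3 alone (right), against the share of spots with Cy5 well above background on that array in percent. Points are numbered by replicate. The lowest ratio of the 10 arrays is 0.25 (control 1) and the highest 1.42 (cold 3), while in Cy3 alone all 4 cold arrays lie between 9.79 and 10.15, above the control maximum of 9.65. BCL2L15 was selected on its change, so this separation is only a description.

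The size of the BCL2L15 change depended on how the arrays were scaled, while its direction was the same in all 13 alternative settings. These refit the same 10 arrays on which the gene was selected, so they give no independent support. Settings that changed only the test, the probe filter or the choice of target sequence kept its 4 probes and could not move the change of 0.66. The change was 0.59 without background subtraction, 0.45 with each array centred on its median and 0.73 in the authors' deposited value table. In the intensities that the scanner software had background-subtracted and dye-normalized it was 0.11, with a standard error of 0.18. Leaving out 1 array at a time gave 0.57 to 0.79. Within the arrays at each of the slide positions, 1 and 2, the change was 0.58 and 0.64.

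**Figure D3:**
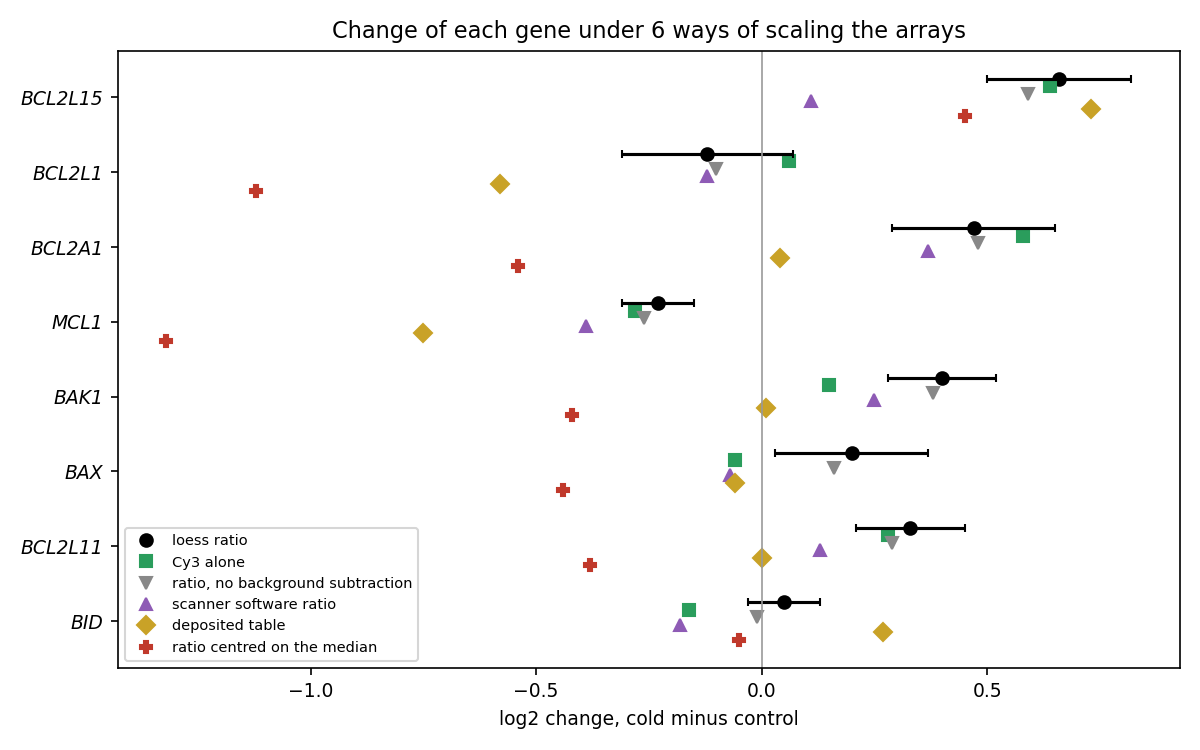
Change of each measured BCL2 family gene (log2, cold minus control) under 6 ways of scaling the arrays, with bars of 1 standard error on the loess ratio. BCL2L15 and MCL1 keep their direction in all of these, whereas centring each array on its median, which moves the median of all genes to -0.43, places BAK1 at -0.42 and MCL1 at -1.32.

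The remaining results follow the role of each gene, beginning with the pro-survival members. MCL1 codes for a short-lived protein on which lymphocytes and granulocytes depend for survival. Its log2 ratio in control was 0.49 at the lowest, 0.60 at the median and 0.72 at the highest array. In cold it was 0.33, 0.28, 0.49 and 0.40 on arrays 1 to 4. All cold arrays lay below the control mean, and the groups touched at cold 3 (0.488) and control 4 (0.486). The means were 0.61 ± 0.09 (SD, n = 6) and 0.38 ± 0.09 (SD, n = 4), a change of -0.23 with a standard error of 0.08 (limma, unadjusted p = 0.0109, adjusted p = 0.118). The exact two-sided permutation test over the 210 splits of the 10 arrays gave p = 0.00952, where 0.00476 is the smallest possible.

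MCL1 was also lower in the ferret channel alone, by 0.28 on the log2 scale of Cy3 (limma, unadjusted p = 0.042, adjusted p = 0.185). All 4 of its probes were lower in cold in both readings. It had a lower mean in cold in all 13 alternative settings, with changes from -1.32 to -0.19. Its adjusted p there lay between 0.0871 and 0.256. The -1.32 came with each array centred on its median, where the median of all genes was -0.43. Settings that changed only the test, the probe filter or the target sequence kept its 4 probes and could not move the change of -0.23. The change was -0.31 within slide position 1 and -0.14 within position 2.

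BCL2A1 codes for a survival protein of blood cells that is induced by inflammatory signals. Its log2 ratio in control was -0.11 at the lowest, 0.07 at the median and 0.32 at the highest array. In cold it was -0.15, 0.92, 0.72 and 0.68 on arrays 1 to 4. Cold 1 thus lay below every control array and the other cold arrays above every one of them. The change was 0.47 with a standard error of 0.18 (limma, unadjusted p = 0.0253, adjusted p = 0.152), and the exact permutation p was 0.0524. Without cold 1 it was 0.71, with an unadjusted p of 7.02e-05 and an adjusted p of 0.0599 in limma, whereas in the deposited table it was 0.04 (limma, unadjusted p = 0.922) and with each array centred on its median -0.54. In Cy3 alone, cold 1 was again the lowest of its group, at 13.47 beside 14.66 to 14.71 on the others.

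BCL2L1 codes for BCL-XL, which guards platelets and developing red cells as well as lymphocytes. Its log2 ratio ranged from -1.005 to -0.10 in control and was -0.98, -1.09, -0.44 and -0.57 on the cold arrays. The groups covered nearly the same range, and the change of -0.12 had a 95% interval of -0.56 to 0.32 (limma, unadjusted p = 0.535, adjusted p = 0.729). Its 12 probes, from 3 target sequences, did not move together, with 9 lower, 2 higher and 1 at 0. In Cy3 alone the change was 0.06, so that no direction can be given for this gene.

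The effectors BAK1 and BAX form the pore in the outer mitochondrial membrane. BAK1 in control was 0.50 at the lowest, 0.68 at the median and 1.03 at the highest array. In cold it was 1.03, 1.19, 1.07 and 1.26 on arrays 1 to 4. The groups were separate by a gap of 0.003. The means were 0.74 ± 0.21 (SD, n = 6) and 1.14 ± 0.10 (SD, n = 4), a change of 0.40 with a standard error of 0.12 (limma, unadjusted p = 0.00516, adjusted p = 0.0966), and the exact permutation p was 0.00952.

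All 8 BAK1 probes were higher in cold, by 0.25 to 0.58, and its target sequences gave 0.42 and 0.38. The call at an unadjusted p of 0.01 was lost in 7 of the 13 alternative settings, among them the deposited table, where the change was 0.01, and the ferret channel alone, where the change was 0.15 (limma, unadjusted p = 0.347, adjusted p = 0.571), the groups overlapped and the probes ran from 0.01 to 0.22. The direction turned to -0.42 with each array centred on its median. The change was 0.50 within slide position 1 and 0.17 within position 2.

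BAX ranged from 0.17 to 0.63 in control and was 0.73, 0.57, 1.14 and 0.11 on the cold arrays. Cold 4 was the lowest and cold 3 the highest of all 10 arrays. The change was 0.20 with a 95% interval of -0.20 to 0.59 (limma, unadjusted p = 0.279, adjusted p = 0.511). It was 0.03 without cold 3 and 0.37 without cold 4 (limma, unadjusted p = 0.0254). All 4 probes were higher in cold as a ratio, but 3 of them were lower in Cy3 alone, where the change was -0.06.

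Of the initiators, BCL2L11 codes for BIM, which ends the life of lymphocytes after an immune response or when survival cytokines are withdrawn. Its log2 ratio in control was 0.36 at the lowest, 0.55 at the median and 0.84 at the highest array. In cold it was 0.86, 1.11, 1.01 and 0.71 on arrays 1 to 4. Only cold 4 overlapped with control, where arrays 3 and 5 stood above it. The change was 0.33 with a standard error of 0.12 (limma, unadjusted p = 0.0187, adjusted p = 0.137), and the exact permutation p was 0.0333.

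All 12 BCL2L11 probes were higher in cold, by 0.12 to 0.45, and its 3 target sequences gave 0.35, 0.33 and 0.32. In Cy3 alone the change was 0.28 (limma, unadjusted p = 0.0723, adjusted p = 0.243). It was 0.00 in the authors' deposited table. Within slide position 1 the change was 0.52 and within position 2 it was 0.03, so that the change was small among the arrays at position 2.

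BID, which links death receptors to the mitochondrial route after cleavage by caspase-8, was the dimmest of the measured genes. Its log2 ratio ranged from 0.15 to 0.38 in control and was 0.41, 0.11, 0.20 and 0.37 on the cold arrays. The change was 0.05 with a 95% interval of -0.15 to 0.24 (limma, unadjusted p = 0.583, adjusted p = 0.763). The pool signal of BID was well above background in 4.2% of the probe and array combinations in control and 37.5% in cold. In Cy3 alone its 4 probes were all lower, by 0.11 to 0.19 on the log2 scale, so that the direction of its change differs between the readings.

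**Figure D4:**
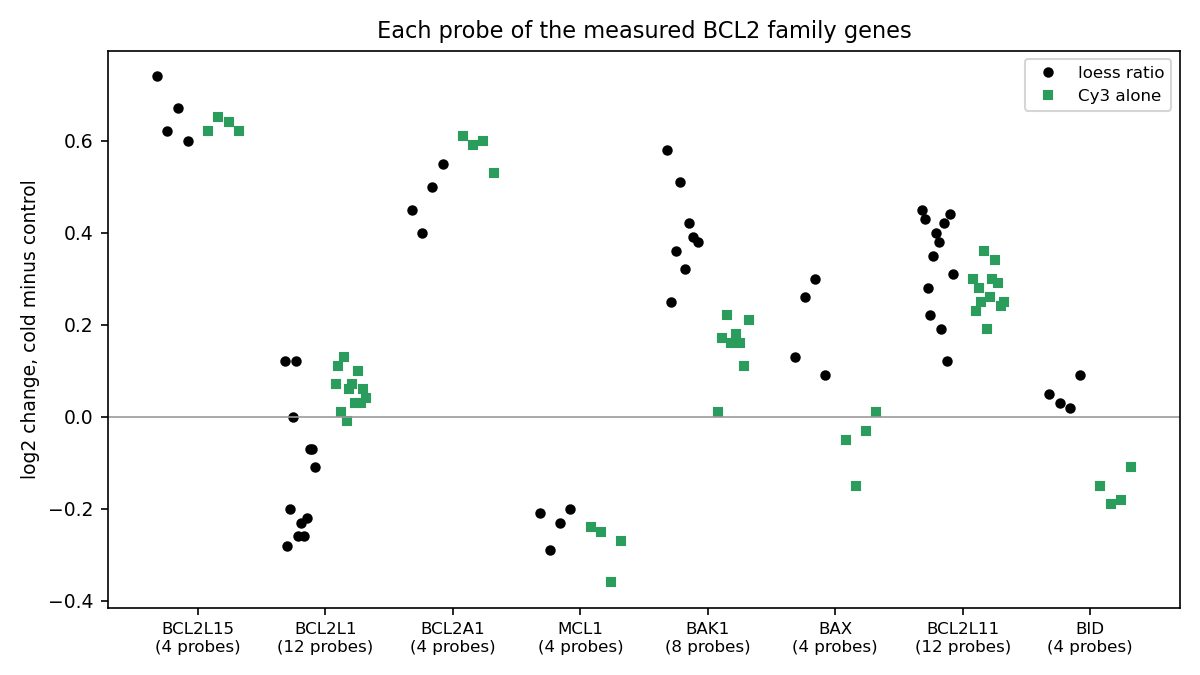
Change of every kept probe (log2, cold minus control) of the 8 measured BCL2 family genes, as the loess ratio (black) and in Cy3 alone (green), with 1 point per probe. The BCL2L15, BCL2A1, BCL2L11, BAK1 and MCL1 probes lie on the same side of 0 in both readings, and those of BID, 3 of 4 of BAX and most of BCL2L1 change side.

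Other genes of the apoptosis pathway were taken from 5 lists of 60 genes, of which 38 were tested. Among them 22 had a higher and 16 a lower mean in cold, with a median change of 0.02, and 2 had an unadjusted p under 0.01, TRADD higher and PIM2 lower, beside the 8.64% of all genes. After adjustment 0 passed in limma, and 8 of the 38 had an unadjusted p under 0.05, beside 24.7% of all genes.

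The first list held further genes with BCL2 homology, of which 8 of 14 were tested, 4 higher and 4 lower, and 0 had an unadjusted p under 0.01. BOK, a relative of BAX and BAK1, had the most negative change, -0.75 with a standard error of 0.25 (limma, unadjusted p = 0.012, adjusted p = 0.121). BCL2L10, a further relative of BCL2, had the most positive one, 0.65 with a standard error of 0.25 (limma, unadjusted p = 0.0223, adjusted p = 0.145). BOK ranged from -3.31 to -1.92 in control and from -3.47 to -3.20 in cold. Its change was -1.06 within slide position 1 and -0.19 within position 2 (limma, unadjusted p = 0.403), -1.21 in the deposited table and -1.79 with median centring.

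The apoptosome and mitochondrial release genes showed 4 higher and 3 lower means among the 7 of 9 tested, with 0 under 0.01. Their extremes were VDAC3, a channel of the outer mitochondrial membrane, at 0.34 (limma, unadjusted p = 0.10) and ENDOG, a mitochondrial nuclease, at -0.12 (limma, unadjusted p = 0.346). With 1 array left out VDAC3 ran from 0.21 to 0.45, and within slide positions 1 and 2 it was 0.10 and 0.52. Of the caspases and their inhibitors, 7 of 13 were tested, 5 with a higher and 2 with a lower mean and 0 under 0.01. CASP2, an initiator caspase, had the most negative change in that list, -0.07 (limma, unadjusted p = 0.466). With 1 array left out it ran from -0.16 to -0.02.

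Of the death receptor genes, 6 of 10 were tested, 4 with a higher and 2 with a lower mean. TRADD, an adaptor of the tumour necrosis factor receptor, had the most positive change, 0.42 with a standard error of 0.12 (limma, unadjusted p = 0.00614, adjusted p = 0.10), and its exact permutation p was 0.019. It ranged from 0.28 to 0.77 in control and was 0.74, 1.15, 1.18 and 0.85 in cold. The call was lost in Cy3 alone (0.28, limma, unadjusted p = 0.0283), with the scanner software's intensities (0.34, unadjusted p = 0.0433), with median centring (-0.52), with the methods' t-test (unadjusted p = 0.0116) and in the deposited table (-0.03, unadjusted p = 0.926), and without control 1, 2, 4 or 6 or cold 2 or 3 (unadjusted p from 0.0113 to 0.0232). TNFSF10 (TRAIL), a death receptor ligand, had the most negative one, -0.35 (limma, unadjusted p = 0.0561, adjusted p = 0.213). It was -0.54 without cold 4 (limma, unadjusted p = 0.000976) and -0.23 without cold 3.

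Of the regulators of BCL2 family proteins and transcripts, 10 of 14 were tested, 5 with a higher and 5 with a lower mean. PIM2, a survival kinase of lymphocytes that phosphorylates BAD, ranged from 0.79 to 1.18 in control and was 0.88, 0.49, 0.27 and 0.64 in cold. All cold arrays lay below its control mean. Its change was -0.44 with a standard error of 0.12 (limma, unadjusted p = 0.00477, adjusted p = 0.0945), and its exact permutation p was 0.019. In Cy3 alone PIM2 fell by 0.92 and passed the adjusted threshold (limma, adjusted p = 0.0421), where 741 of all genes passed (2.82%) and 9.84% had an unadjusted p under 0.01. The call of PIM2 under 0.01 was lost with array weights (limma, unadjusted p = 0.0124) and the replicate block (0.0246), and without control 2, 3 or 4 or cold 2 or 3 (0.0107 to 0.0172). It was also lost within slide position 1 (-0.31, limma, unadjusted p = 0.108) and position 2 (-0.58, limma, unadjusted p = 0.0274). The change of PIM2 was -1.01 in the deposited table and -1.52 with median centring, where the median of all genes was -0.43. FBXW7, which marks MCL1 for destruction, had the most positive change of the list, 0.09 (limma, unadjusted p = 0.36).

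**Figure D5:**
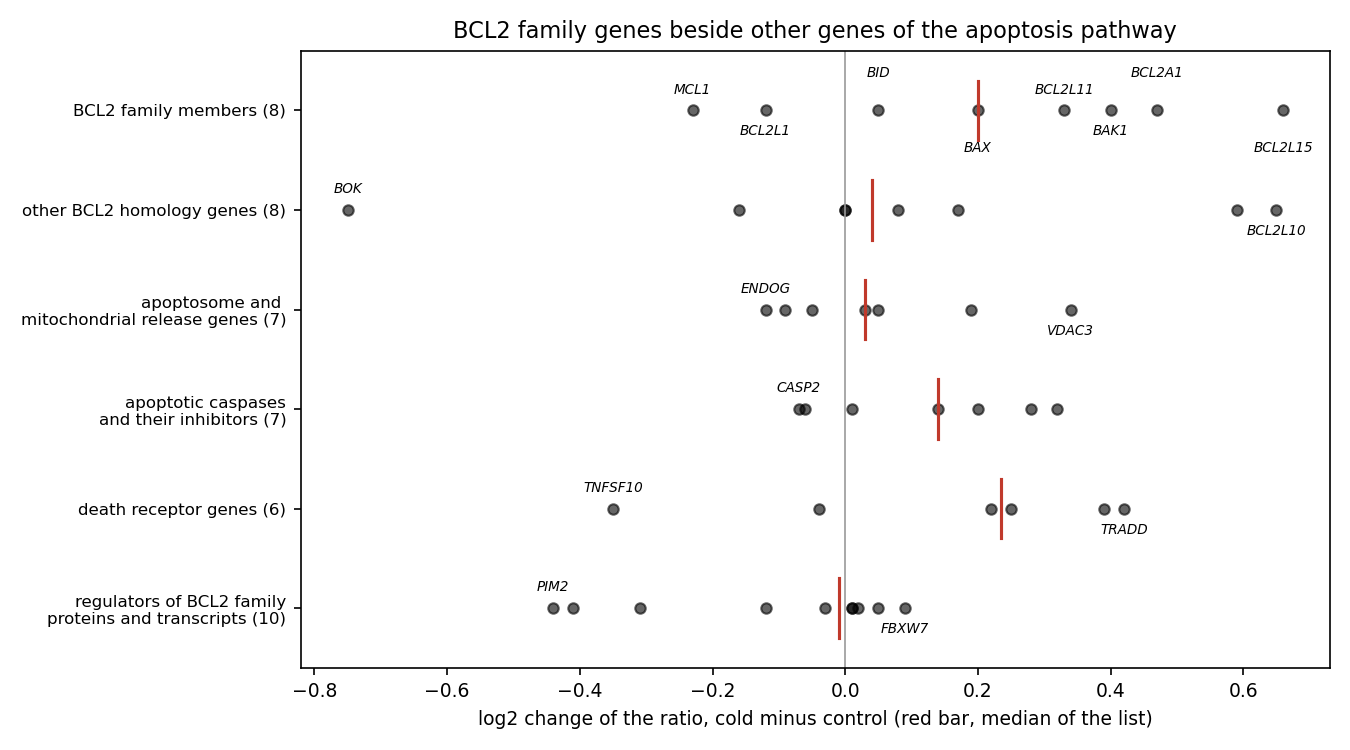
Change of the log2 ratio (cold minus control) of the 8 measured BCL2 family genes and of the tested genes of 5 apoptosis lists, with 1 point per gene and a red bar at the median of each list (without BCL2L15 for the family). The number of genes is in brackets, and the names mark the family, extremes of the lists and genes with an unadjusted p under 0.01. Points lie on both sides of 0 in every list.

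The arrays also differed in genes that mark other blood cells. All 7 measured of 12 neutrophil markers had a higher mean in cold, with a median change of 0.82, and their mean log2 ratio ran from 0.51 to 1.22 on control arrays and from 1.52 to 1.94 on cold arrays, with no overlap. The neutrophil median was 0.48 in the deposited table and -0.01 with each array centred on its median, and the monocyte median 0.03 and -0.50, against 0.44 as a loess ratio. The granule gene MPO had the largest change of the list, 1.41, with means of -0.23 in control and 1.18 in cold. The smallest were those of CSF3R, 0.40 (limma, unadjusted p = 0.252), and MMP9, 0.19 (limma, unadjusted p = 0.598). ELANE, LTF, CAMP, MMP8 and FCGR3A were not matched. The 7 platelet markers of 10 ran from -0.05 to 1.37 in control and from 0.89 to 1.81 in cold, and the 8 monocyte markers of 10 from 0.02 to 0.50 and from 0.12 to 1.03.

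Of the 9 measured of 10 T cell markers, 8 had a lower mean in cold, beside 52% of all genes. Their mean ran from -0.07 to 0.26 in control and from -0.85 to -0.08 in cold. The 4 erythroid markers of 11 ran from 0.18 to 1.12 in control and from -0.85 to -0.06 in cold, the 7 B cell markers of 9 from -0.32 to 1.18 and from -0.03 to 0.50, and the 4 cytotoxic and NK cell markers of 8 from 0.34 to 1.08 and from 0.09 to 1.18. The markers of T cells, B cells and monocytes, which define PBMC, were thus measured in both groups. An unadjusted p under 0.01, which 8.64% of all genes had, was found for 3 neutrophil, 3 platelet and 1 monocyte marker with a higher mean and for 1 T cell, 1 B cell and 1 erythroid marker with a lower mean. The part of these cell markers in the results on BCL2L15, BAK1, BCL2L11, BCL2A1 and MCL1 was not tested.

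The named genes whose log2 ratio was most like that of BCL2L15 over the 10 arrays included RIPK3, ATP8B4, SDCCAG8 and ADA2, out of 8340 compared, with Pearson's r of 0.986, 0.984, 0.982 and 0.972. The points share 10 libraries, the groups and the reference channel. With the group means removed, r was 0.967, 0.959, 0.950 and 0.959. In Cy3 alone the same genes gave 0.553, 0.776, 0.557 and 0.868. They were picked for their r as a ratio, and genes picked for their r in Cy3 alone, named after their values were seen, gave other pairs of values, with DPF2 at 0.972 in Cy3 and 0.781 as a ratio and DAPK1 at 0.930 and 0.922.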

How the data were processed

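Arrays of 6 control and 4 cold ferrets were used. The authors deposited spot intensities of Agilent Feature Extraction 10.7.3.1, not normalized, with background-subtracted, dye-normalized intensities beside them, and a log2 value table by target sequence, whose constants per array and sequence are not given in the sources used here. Median spot intensities were background-corrected (normexp, offset 50, limma 3.58.1, R 4.3.3), control spots and outlier-flagged spots were left out, and log2 ratios were loess normalized (span 0.3, 4 iterations). A probe stayed in if Cy3 was flagged as well above background for a share of 0.5 or more of its spots in 4 or more arrays (111051 of 181312 probes), and probes were averaged per gene. Names came from the RefSeq table of assembly ASM1176430v1.1 (21104 of 45328 target sequences, 12918 genes). No sequence or genome coordinate is given, since none was used here.

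Groups were compared with limma (lmFit, eBayes, Benjamini-Hochberg over 26303 genes) and exact permutation over 210 splits. On simulated data with a log2 change of 1 in 200 genes, 81.5% were recovered, and 6.86% of calls were false. The simulated noise was independent between genes, and the planted change was larger than that of any tested family gene. It therefore does not show how often changes of their size would be found. All 10 listed genes are named, of the other pathway lists each gene with an unadjusted p under 0.01 and the extremes, and the 5 genes most like BCL2L15, except 2 genes whose values are left out here, although counts include them. Members and lists were chosen with earlier results of these data known. Each array had its own slide and all were scanned on 1 day. Alternatives covered background correction, normalization, source of values, dim-probe filter, probe summary, test, slide position, replicate number and leaving out each array. Fits within each slide position were added after the data were seen.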

Additional observations from a re-analysis of the deposited data

How the results depend on the processing

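No tested family gene passed an adjusted p of 0.05 in any of the 13 alternative settings or with any 1 of the 10 arrays left out, where the lowest adjusted p was 0.0512. The number of family genes with an unadjusted p under 0.01, 1 as reported, was 0 with the scanner software's intensities, without background subtraction, with median centring, in Cy3 alone, in the deposited table and with the replicate block, and 2 without a filter on dim probes, with the methods' t-test, with array weights and at slide position 1. With 1 array left out it was 0 to 2, and 0 without control 2, control 6 or cold 2. The gene called was not always BAK1: it was BCL2L11 with 1 target sequence per gene and without cold 4, MCL1 without control 4 and BCL2A1 at slide position 2. That of the other pathway genes, 2 as reported, was 4 with the median over probes, 1 at slide position 1 and 0 at position 2, and 0 to 4 with 1 array left out (0 without control 2). After adjustment, 1 pathway gene (PIM2) passed in Cy3 alone, and with 1 array left out 0 to 1 (PMAIP1, without cold 2). Over all genes, 741 passed the adjusted threshold in Cy3 alone, 115 with probes well above background on all 10 arrays and 5 with slide position as a block, and 0 to 1272 with 1 array left out (633 without control 5, 1272 without cold 2, 12 without cold 1). At an unadjusted p under 0.01 there were 1505 with the scanner software's intensities, 1163 with median centring, 1093 in the deposited table, 1021 and 405 at slide positions 1 and 2, and 1275 to 3386 with 1 array left out.

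Single values turned direction as follows. With the scanner software's intensities, BAX was -0.07, BID -0.18, FBXW7 -0.21 and the cytotoxic and NK cell list -0.03. Without background subtraction BID was -0.01. With median centring, where 77.1% of all genes were lower in cold (52% as reported), BCL2L11 was -0.38, BCL2A1 -0.54, BAX -0.44, BAK1 -0.42, BID -0.05, FBXW7 -0.17, TRADD -0.52, VDAC3 -0.60, and the neutrophil, monocyte and cytotoxic and NK cell lists -0.01, -0.50 and -0.92. In Cy3 alone BCL2L1 was 0.06, BAX -0.06, BID -0.16, ENDOG 0.05 and the cytotoxic and NK cell list -0.14. In the deposited table BAX was -0.06, TRADD -0.03, VDAC3 -0.08 and the cytotoxic and NK cell list -0.42. Without a filter CASP2 was 0.01. At slide position 1 FBXW7 was -0.06, and at position 2 BCL2L1 was 0.19. The cytotoxic and NK cell list ran from -0.15 to 0.20 with 1 array left out. The causes were not tested. Same-numbered arrays of the groups had correlations of their deviations of -0.30, 0.54, 0.10 and -0.19, so that the numbers do not pair the animals, and the replicate block left 0 family genes under 0.01. The 10 arrays, and the dim reference signal of BCL2L15 and BID, limit these values.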
